A study of Homo sapiens with 28 samples.

Results

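The effect of vitamin D on RNA was followed in EPC2 cells that were given IL-13 at the same time. EPC2 is an immortalised human esophageal epithelial cell line, so the values below come from 1 line in culture. The cells under study (IL-13+VitD cells) received IL-13 at 100 ng/ml together with vitamin D at 100 nM for 6 h, and they were set against cells that received IL-13 at 100 ng/ml alone for 6 h (IL-13 cells). Cells given vitamin D at 100 nM alone (VitD cells) and untreated cells, cultured in the same KSFM medium and seeded at the same high density, are shown beside them. The labels list 3 RNA samples in each of these 4 groups, but do not say if each came from its own culture or what form the vitamin D had. The deposited tables give 1 RPKM value per group (read counts scaled to transcript length and library size), so no value per sample and no spread between samples can be shown, and read depth is unknown. Genes were included where either IL-13+VitD or IL-13 cells reached at least 1 RPKM, which held for 11400 of the 23533 genes in the tables. CRTC1, at 1.00 RPKM in its higher group, was the last gene inside this limit, and FAM86JP, at 0.999815 RPKM, the first outside it.

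Vitamin D acts after conversion to its hormonal form, which binds the vitamin D receptor VDR. VDR pairs with a retinoid X receptor (RXR) and binds DNA, classically at a DR3 motif, a direct repeat of a hexamer with a spacer of 3 bases. The type 2 cytokine IL-13 binds a receptor of IL4R and IL13RA1 chains, whose JAK kinases activate the transcription factor STAT6. In esophageal epithelium IL-13 is known for inducing the eosinophil chemokine CCL26 and the protease CAPN14 and for reducing terminal differentiation, a program linked to eosinophilic esophagitis.

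No table used here holds IL-13+VitD against IL-13. The log2 difference used throughout is therefore the authors' log2 fold change of IL-13+VitD over untreated minus their log2 fold change of IL-13 over untreated, so a positive value is higher in IL-13+VitD cells. Its standard error (SE) was derived from the deposited fold changes and p-values, and it was tested with a z test with Benjamini-Hochberg adjustment over all genes tested. Genes with an adjusted p under 0.05 are called, and "raised", "rose", "lowered" and "fell" are used of called genes. Of the 11400 genes, 11392 could be tested. The other 8 were 7 small RNA genes and KCNK3, a potassium channel gene, which had 1.43 RPKM in IL-13+VitD cells and 0.0206 RPKM in IL-13 cells but no usable test in IL-13 cells. Because a bulk measurement was made, fewer cells of a kind and less RNA per cell cannot be told apart.

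Vitamin D raised 1168 genes and lowered 966 genes on top of IL-13. These were 10.3% and 8.48% of the 11392 genes tested, against 8.23% raised and 6.94% lowered among all 15164 genes tested in the tables. The gene lists below were not tested against the shares of 10.3% and 8.48%. A count near these shares says nothing particular about its list. Most changes were small: the absolute log2 difference of called genes had a median of 0.40, and the smallest was 0.14. A difference of 1 or more on the log2 scale was reached by 138 raised and 59 lowered genes, or 1.21% and 0.518% of those tested. By the ratio of the 2 RPKM values, with 0.1 RPKM added to each, 132 genes (1.16%) were at least 2-fold higher and 73 (0.64%) at least 2-fold lower in IL-13+VitD cells. The median log2 difference over all 11392 genes was -0.01 and the median log2 RPKM ratio -0.03, so that the groups were centred alike.

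**Figure D1:**
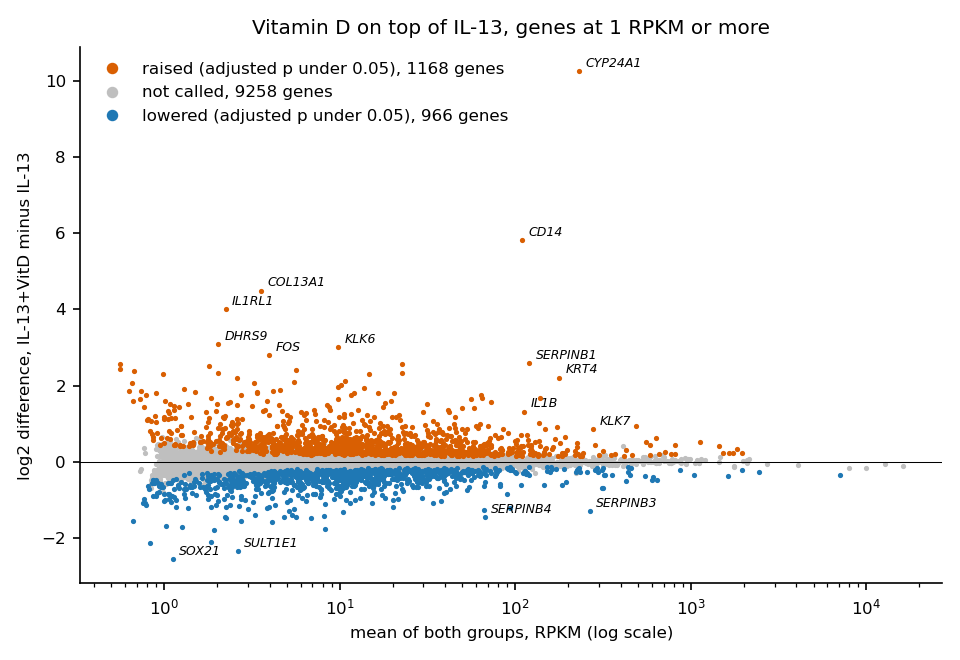
Log2 difference between IL-13+VitD and IL-13 cells (vertical axis) against the mean RPKM of both groups (horizontal axis, log scale) for 11392 genes; orange points are raised, blue points lowered and grey points not called. The rises reach far higher than the falls reach low, with CYP24A1 at 10.25 and CD14 at 5.81, against -2.55 for SOX21.

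CYP24A1 encodes the 24-hydroxylase that inactivates vitamin D. It had 463 RPKM in IL-13+VitD cells against 0.281 RPKM in IL-13 cells, and 560 RPKM in VitD cells against 0.476 RPKM in untreated cells. Its log2 difference on top of IL-13 was 10.25 ± 0.32 (SE), the largest rise of any gene called. The p-value of CYP24A1 for IL-13+VitD over untreated is listed as 0, so this SE is an upper bound. CYP27B1, the 1-alpha-hydroxylase that makes the hormone, had 4.94 RPKM in IL-13+VitD cells and 6.15 RPKM in IL-13 cells, a log2 difference of -0.24 ± 0.13 (95% interval -0.50 to 0.02) that was not called. In the authors' deposited table CYP27B1 was higher in IL-13 than in untreated cells, by 1.19 on the log2 scale. CYP2R1, a 25-hydroxylase acting one step before, fell by 0.33, at 7.90 RPKM in IL-13+VitD cells and 10.2 RPKM in IL-13 cells (95% interval of the log2 difference -0.55 to -0.11).

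The receptors themselves moved little. VDR had 9.74 RPKM in IL-13+VitD cells and 11.2 RPKM in IL-13 cells, with a log2 difference of -0.18 ± 0.07 that was not called after adjustment. RXRA, the RXR partner with the highest level, fell by 0.26, at 19.0 RPKM in IL-13+VitD cells and 23.3 RPKM in IL-13 cells (95% interval of the log2 difference -0.42 to -0.11). In all, 2 of the 14 genes of vitamin D metabolism and its receptors that were tested rose and 2 fell, with a median log2 difference of -0.02. The coactivator genes NCOA1, NCOA2 and NCOA3, the mediator subunit gene MED1 and the corepressor gene NCOR1 were not called, with log2 differences between -0.13 and 0.15.

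Known VDR targets had the highest median of the lists with more than 1 gene tested. Of 30 such genes tested 20 rose and 3 fell, with a median log2 difference of 0.72 beside -0.01 over all genes. The list was drawn up from earlier work on vitamin D with results of these data known, and is not independent evidence of a direction. CD14, the co-receptor for bacterial lipopolysaccharide, had 216 RPKM in IL-13+VitD cells against 3.67 RPKM in IL-13 cells, and 132 RPKM in VitD cells against 2.62 RPKM in untreated cells. Its level with both agents was the highest of the 4 groups. IL1RL1, the receptor of the alarmin IL-33, had 4.27 RPKM in IL-13+VitD cells and 0.221 RPKM in IL-13 cells, with a 95% interval of the log2 difference of 3.51 to 4.49. KLK6, a kallikrein serine protease, had 17.6 RPKM in IL-13+VitD cells and 2.01 RPKM in IL-13 cells. CAMP, which encodes the antimicrobial peptide cathelicidin, had 3.21 RPKM in IL-13+VitD cells and 0.390 RPKM in IL-13 cells, a low level that still rose by 2.50 ± 0.29.

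DHRS9, a retinol and steroid dehydrogenase, showed both treatments side by side. It had 3.79 RPKM in IL-13+VitD cells against 0.286 RPKM in IL-13 cells, and 19.9 RPKM in VitD cells against 1.95 RPKM in untreated cells. The rise with vitamin D was 3.08 ± 0.20 on the log2 scale with IL-13 present, and 3.31 in the authors' deposited table without it, while IL-13 alone lowered it by 2.11 in that table. FOS, an AP-1 transcription factor, had 7.04 RPKM in IL-13+VitD cells and 0.913 RPKM in IL-13 cells. The 3 targets that fell were TXNIP, an inhibitor of thioredoxin, CDKN1A, a cell cycle inhibitor, and TNFAIP3, a brake on NF-kappaB, with log2 differences between -0.68 and -0.34.

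Beyond the listed targets, the largest rises were of genes with varied roles. SERPINB1, an inhibitor of neutrophil proteases, had 207 RPKM in IL-13+VitD cells against 34.3 RPKM in IL-13 cells, and 407 RPKM in VitD cells against 64.0 RPKM in untreated cells. KRT4, a keratin of the suprabasal esophagus, had 293 RPKM in IL-13+VitD cells against 63.8 RPKM in IL-13 cells, and 242 RPKM in VitD cells against 64.3 RPKM in untreated cells. Both genes are abundant, with log2 differences of 2.59 and 2.21. Their SEs, 0.06 and 0.07, are upper bounds, because their p-values for IL-13+VitD over untreated are listed as 0. EFTUD1, a GTPase of ribosome maturation, had 37.6 RPKM in IL-13+VitD cells and 7.46 RPKM in IL-13 cells. CD97, an adhesion receptor, had 9.57 and 1.75 RPKM in IL-13+VitD and IL-13 cells. GCNT3, a mucin core glycosyltransferase, had 24.2 RPKM in IL-13+VitD cells against 5.32 RPKM in IL-13 cells, and 5.36 RPKM in VitD cells against 0.969 RPKM in untreated cells, so that each agent was followed by a higher level. The transporter genes SLC6A12 and SLC6A14 rose by 2.58 and 2.21, with IL-13+VitD levels of 1.01 and 4.34 RPKM.

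The largest falls were smaller and mostly of genes of low level, as were many of the largest rises. SOX21, a transcription factor of the SOX family, had 0.229 RPKM in IL-13+VitD cells and 2.004 RPKM in IL-13 cells, a log2 difference of -2.55 ± 0.27. SULT1E1, the estrogen sulfotransferase, had 0.775 RPKM in IL-13+VitD cells and 4.49 RPKM in IL-13 cells. ADH7, a retinol-oxidising alcohol dehydrogenase of the upper digestive tract, had 0.649 and 3.03 RPKM in IL-13+VitD and IL-13 cells. CXCL14, an epithelial chemokine, had 3.60 RPKM in IL-13+VitD cells against 12.8 RPKM in IL-13 cells, and 3.62 RPKM in VitD cells against 12.1 RPKM in untreated cells. The WNT ligands WNT4 and WNT10A fell by 1.73 and 1.40, the cystine transporter SLC7A11 by 1.49 and the KIT ligand KITLG by 1.45. Among the 20 largest falls, SERPINB4 was the only gene above 13 RPKM in IL-13 cells.

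**Figure D2:**
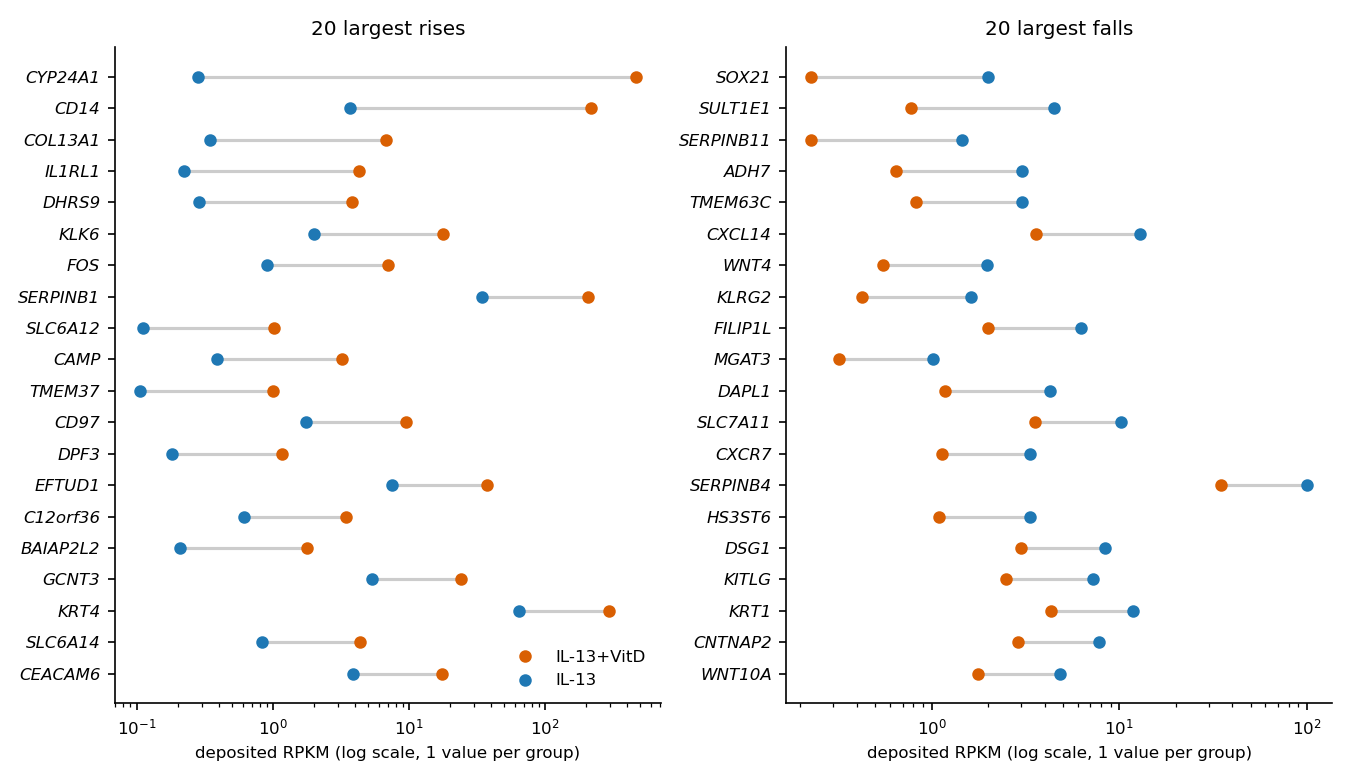
Deposited RPKM (horizontal axes, log scale, 1 value per group) in IL-13+VitD cells (orange) and IL-13 cells (blue) for the 20 largest rises (left) and the 20 largest falls (right) among called genes. Genes whose deposited fold changes disagree by over 0.5 on the log2 scale are left out, among them TNFAIP6, with a log2 difference of 2.57. CYP24A1 reaches 463 RPKM against 0.281 RPKM, while most genes of either panel lie below 10 RPKM in both groups.

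VDR binding was read from the authors' regions in VitD cells; VDR regions in cells given IL-13 were not analysed here. There were 9224 regions in VitD cells and 1828 in untreated cells, from 1 library each, so the shares below describe these libraries. A VDR region of VitD cells lay within 50 kb of the gene start for 865 of 1168 raised genes (74.1%), 396 of 966 lowered genes (41.0%) and 3704 of 9258 genes not called (40.0%). For genes raised by 1 or more on the log2 scale the share was 84.1% (116 of 138), and for genes lowered as far it was 22.0% (13 of 59). Within 10 kb the shares were 43.5% of raised, 15.5% of lowered and 15.2% of genes not called. The share for lowered genes was thus close to that for genes not called at both distances. Regions of untreated cells lay within 50 kb of 33.2% of raised, 8.80% of lowered and 9.67% of genes not called.

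Several of the largest rises carried strong regions. At CAMP the strongest region within 50 kb had 120-fold enrichment by the authors' peak caller, with its summit 462 bases upstream of the start (chr3:48263534-48265236, hg19). At CD97 the summit lay 1 base from the start, with 61.6-fold enrichment, and at EFTUD1 it lay 743 bases downstream, with 68.0-fold enrichment. CYP24A1 had 9 regions within 50 kb, one with its summit 245 bases from the start, and the strongest at 111-fold enrichment with its summit 50160 bases downstream, beyond the gene's far end. No region lay within 50 kb of the raised genes C12orf36 and DPF3, or of the lowered genes SOX21, SULT1E1, ADH7, CXCL14, SERPINB3 and SERPINB4. At the raised genes COL13A1 and SLC6A14 the only region within 50 kb had 4.38 and 4.51-fold enrichment.

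Promoters are shown for the raised genes named here that had a VDR summit within 250 bases before the start and 1 promoter in the RefSeq table, and for the one with a DR3 motif. These are SERPINB1, IL1B, NFKBIA and CEACAM6. Each sequence runs 5′ to 3′ over the 250 bases before the start of the gene (RefSeq, GRCh38.p14). Capitals mark the hexamer AGGTCA and its variants GGGTCA and also AGTTCA as well as GGTTCA, on either strand, in the first 3. In CEACAM6 they mark the whole DR3 match, which holds 2 hexamers on the minus strand and their spacer.
SERPINB1 (chr6:2841864-2842113, minus strand): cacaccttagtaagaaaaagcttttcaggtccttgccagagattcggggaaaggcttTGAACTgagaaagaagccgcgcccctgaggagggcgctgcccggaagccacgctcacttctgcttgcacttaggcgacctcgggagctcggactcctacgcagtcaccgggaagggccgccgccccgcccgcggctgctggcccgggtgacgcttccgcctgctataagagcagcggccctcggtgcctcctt
IL1B (chr2:112836780-112837029, minus strand): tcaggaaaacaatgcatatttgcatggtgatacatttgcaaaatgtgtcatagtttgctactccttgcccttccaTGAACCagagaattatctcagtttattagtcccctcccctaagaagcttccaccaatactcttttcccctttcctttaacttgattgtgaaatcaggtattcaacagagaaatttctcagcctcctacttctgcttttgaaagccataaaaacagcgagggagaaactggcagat
NFKBIA (chr14:35404750-35404999, minus strand): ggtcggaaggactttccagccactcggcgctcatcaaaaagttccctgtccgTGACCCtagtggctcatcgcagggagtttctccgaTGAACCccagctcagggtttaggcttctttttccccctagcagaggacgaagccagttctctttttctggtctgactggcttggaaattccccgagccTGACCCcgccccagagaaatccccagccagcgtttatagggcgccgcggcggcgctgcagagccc
CEACAM6 (chr19:41755280-41755529, plus strand): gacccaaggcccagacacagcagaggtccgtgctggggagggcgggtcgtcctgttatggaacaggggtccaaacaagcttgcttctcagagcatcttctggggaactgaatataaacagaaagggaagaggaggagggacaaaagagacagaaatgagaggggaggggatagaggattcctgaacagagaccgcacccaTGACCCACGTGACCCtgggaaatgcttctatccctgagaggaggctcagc

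The VDR summits lay 114 bases before the start of SERPINB1, 101 bases before IL1B and 124 before NFKBIA by the hg19 coordinates of the files, with enrichments of 4.48, 5.70 and 15.5-fold, and their places in the GRCh38 letters were not determined. At CEACAM6, which codes for a cell surface adhesion molecule and had 17.5 RPKM in IL-13+VitD cells and 3.91 RPKM in IL-13 cells, the nearest summit lay 19276 bases from the start. The DR3 motif, searched on both strands, was held by 2 of 560 raised genes with 1 promoter in the table (0.357%), 0 of 471 lowered genes, 2 of 4859 genes not called and 0.0655% of all 35116 promoters. The single hexamers were held by 27.3% of raised, 25.7% of lowered and 27.7% of genes not called, against 33.8% of all promoters.

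Genes of the IL-13 response moved in both directions. Of 19 such genes tested 7 rose and 5 fell, with a median log2 difference of 0.22 but a median log2 RPKM ratio of 0.04. CCL26 and CISH, among those that rose, are not called when the RPKM ratio is tested. The squamous cell carcinoma antigens SERPINB3 and SERPINB4, protease inhibitors induced by IL-13, fell together. SERPINB3 had 152 RPKM in IL-13+VitD cells against 381 RPKM in IL-13 cells, and 25.6 RPKM in VitD cells against 106 RPKM in untreated cells. SERPINB4 had 34.7 RPKM in IL-13+VitD cells against 100 RPKM in IL-13 cells, and 1.56 RPKM in VitD cells against 3.28 RPKM in untreated cells. Their levels with both agents stayed above those of untreated cells, and the pair is nearly identical in sequence, so reads may be split between them. CDH26, a cadherin of allergic epithelium, fell by 0.92 to 1.56 RPKM in IL-13+VitD cells, against 3.32 RPKM in IL-13 cells. The chloride channel gene ANO1 and the peptidase gene DPP4 fell by 0.35 and 0.27.

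Other IL-13 response genes rose. COL13A1, a transmembrane collagen, had 6.79 RPKM in IL-13+VitD cells against 0.344 RPKM in IL-13 cells, and 1.03 RPKM in VitD cells against 0.108 RPKM in untreated cells. HRH1, the histamine H1 receptor, had 18.8 RPKM in IL-13+VitD cells against 5.38 RPKM in IL-13 cells, and 7.44 RPKM in VitD cells against 3.68 RPKM in untreated cells. RPTN, a cornified envelope protein, had 84.0 RPKM in IL-13+VitD cells against 27.4 RPKM in IL-13 cells, and 12.9 RPKM in VitD cells against 5.77 RPKM in untreated cells. The level of all 3 was highest with both agents. TNFAIP6, a hyaluronan-binding protein, had 36.5 RPKM in IL-13+VitD cells and 9.03 RPKM in IL-13 cells, but 0.0949 RPKM in VitD cells and 0.0561 RPKM in untreated cells.

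For CAPN14 and CCL26, the genes best known from this response, the size of the difference is uncertain. CAPN14, an esophageal calpain, had 463 RPKM in IL-13+VitD cells and 358 RPKM in IL-13 cells, against 14.8 RPKM in VitD cells and 10.2 RPKM in untreated cells. Its log2 difference was 0.40 with a 95% interval of 0.01 to 0.80 and was not called after adjustment; its p-values are listed as 0, so this SE is an upper bound and the missed call says nothing of its stability; its log2 RPKM ratio was 0.37. CCL26 had 9.73 RPKM in IL-13+VitD cells and 7.85 RPKM in IL-13 cells, a log2 RPKM ratio of 0.31, while the derived difference was 1.35 ± 0.30 and called. The 2 measures part for genes nearly absent from untreated cells, as CCL26 was at 0.0189 RPKM, and 24 of the 11392 genes tested differ by over 0.5 between them, 7 of them called. For SH2D1B, an adaptor in the IL-13 response list, the signs differ: the derived difference was 0.17, not called, and the log2 RPKM ratio -0.83. CA2, a carbonic anhydrase, had 586 and 596 RPKM in IL-13+VitD and IL-13 cells, with a 95% interval of the log2 difference of -0.13 to 0.13. The p-values of CA2 are listed as 0 too, so the width of this interval is an upper bound.

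The IL-13 receptor and its kinases were mostly not called. IL4R, the shared receptor chain, had 52.1 RPKM in IL-13+VitD cells against 33.1 RPKM in IL-13 cells, and 60.8 RPKM in VitD cells against 38.3 RPKM in untreated cells, with a log2 difference of 0.67 ± 0.06 on top of IL-13. IRS1, an adaptor of this receptor, rose by 1.02, and the phosphatase gene PTPN1 by 0.78. JAK1, a kinase of this receptor, rose by 0.17, with 26.2 and 23.6 RPKM in IL-13+VitD and IL-13 cells, but is not called with the RPKM ratio. IL13RA1, TYK2, JAK2, STAT3 and STAT6 were not called, with log2 differences between -0.13 and 0.01. STAT6 had 24.5 RPKM in IL-13+VitD cells and 27.2 RPKM in IL-13 cells (95% interval of the log2 difference -0.26 to -0.01, not called after adjustment). CISH, a feedback inhibitor induced by IL-13, rose by 0.30, with 27.8 and 23.3 RPKM in IL-13+VitD and IL-13 cells. In all, 5 of 24 genes of the IL-4 and IL-13 receptors and JAK-STAT signalling rose and 2 fell, STAT5A and PTPN2, beside 10.3% raised and 8.48% lowered over all genes.

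Late differentiation genes more often fell. Of 38 cornified envelope and late differentiation genes tested 16 fell and 5 rose, with a median log2 difference of -0.17. TGM3, a transglutaminase that crosslinks the envelope, had 8.06 RPKM in IL-13+VitD cells against 16.5 RPKM in IL-13 cells, and 8.58 RPKM in VitD cells against 16.4 RPKM in untreated cells. SPRR2F, a small proline-rich envelope precursor, fell by 0.87, and the airway and esophageal protease gene TMPRSS11D by 0.72. CRNN, which encodes cornulin, rose instead, with 71.8 RPKM in IL-13+VitD cells against 27.2 RPKM in IL-13 cells, and 88.0 RPKM in VitD cells against 50.8 RPKM in untreated cells. IVL, the envelope precursor involucrin, had 21.5 RPKM in IL-13+VitD cells against 12.7 RPKM in IL-13 cells, and 92.6 RPKM in VitD cells against 50.3 RPKM in untreated cells. CRNN and IVL are lower with IL-13 than in untreated cells in the authors' deposited table, by 0.90 and 1.96 on the log2 scale, which are fold changes against the untreated group.

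Of 21 keratin genes tested 8 rose and 3 fell. Besides KRT4, KRT78 had 30.0 and 18.0 RPKM in IL-13+VitD and IL-13 cells, and KRT19, a simple epithelial keratin, 1637 and 1242 RPKM. KRT13, the usual partner of KRT4, rose by only 0.25 ± 0.07, at 114 RPKM in IL-13+VitD cells against 96.7 RPKM in IL-13 cells, and its levels were 254 RPKM in VitD cells and 201 RPKM in untreated cells. The epidermal pair KRT1 and KRT10 fell by 1.42 and 0.67. KRT1 had 4.35 RPKM in IL-13+VitD cells against 11.9 RPKM in IL-13 cells, and 9.87 RPKM in VitD cells against 29.9 RPKM in untreated cells. Of the basal layer keratins KRT14 fell by 0.34, with 6196 RPKM in IL-13+VitD cells and 8020 RPKM in IL-13 cells, KRT15 rose by 0.32, with 134 and 109 RPKM, and KRT5 was not called.

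Of 28 desmosome and tight junction genes tested 8 rose and 8 fell. CLDN23, CLDN7 and CLDN4 rose by 1.43, 1.17 and 0.51, and CLDN17 and CLDN1 fell by 0.57 and 0.20. CLDN7 had 61.6 RPKM in IL-13+VitD cells and 29.3 RPKM in IL-13 cells. The desmosomal cadherin genes called were all lowered: DSG1, DSC2, DSG3 and DSC3, with log2 differences between -1.45 and -0.20. DSG1, a cadherin lost in eosinophilic esophagitis, had 2.98 RPKM in IL-13+VitD cells against 8.34 RPKM in IL-13 cells, and 3.68 RPKM in VitD cells against 16.4 RPKM in untreated cells. The plaque genes PKP1 and DSP fell by 0.39 and 0.22.

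Of 32 kallikreins, cathepsins and other proteases 14 rose and 4 fell, with a median of 0.17, and of 31 protease inhibitors 6 rose and 10 fell, with a median of -0.05; the difference between the 2 lists was not tested. KLK7, which degrades desmosomal proteins in skin, had 355 RPKM in IL-13+VitD cells against 199 RPKM in IL-13 cells, and 211 RPKM in VitD cells against 140 RPKM in untreated cells. KLK13 and KLK5 rose by 0.85 and 0.33, and the serine protease gene PRSS22 by 1.36. The inhibitors that fell were mainly SERPINB genes: SERPINB11, SERPINB4, SERPINB3, SERPINB13, SERPINB8, SERPINB12, SERPINB2 and SERPINB5, by 2.13 to 0.26 on the log2 scale. SERPINB13 had 55.5 RPKM in IL-13+VitD cells against 132 RPKM in IL-13 cells, and 20.7 RPKM in VitD cells against 62.2 RPKM in untreated cells. SERPINB1 and SERPINB9, which inhibit neutrophil and granzyme proteases, rose. SERPINB9 had 3.47 and 1.15 RPKM in IL-13+VitD and IL-13 cells.

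**Figure D3:**
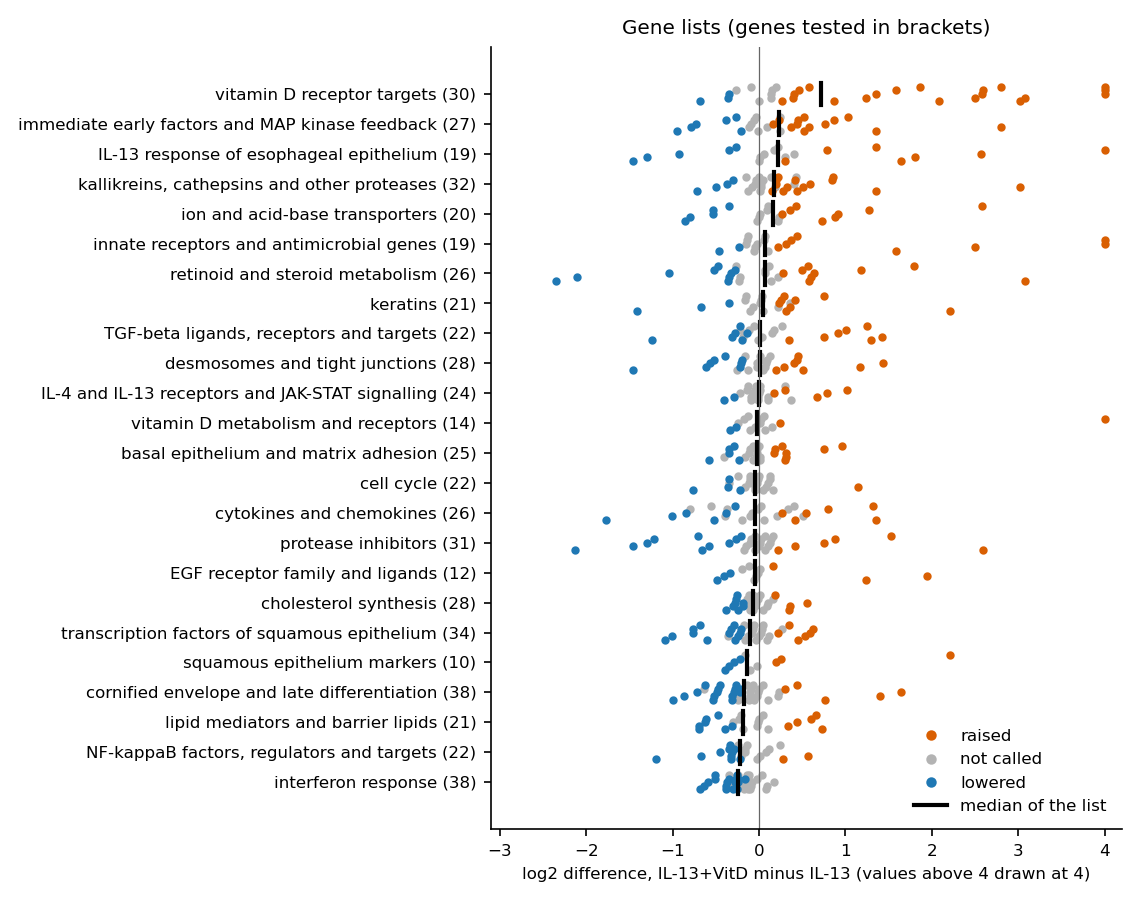
Log2 difference between IL-13+VitD and IL-13 cells (horizontal axis) of the tested genes of each list (rows, number tested in brackets); orange points are raised, blue lowered, grey not called, and the black bar is the median of the list. VDR targets have the highest median, 0.72, and interferon response genes the lowest, -0.24, among lists with more than 1 gene tested.

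Cytokine and chemokine genes were divided. Of 26 tested 6 rose and 6 fell. IL1B, the inflammatory cytokine, had 160 RPKM in IL-13+VitD cells against 64.9 RPKM in IL-13 cells, and 171 RPKM in VitD cells against 89.8 RPKM in untreated cells. CSF3, a neutrophil growth factor, had 3.07 and 1.84 RPKM in IL-13+VitD and IL-13 cells. CXCL10, an interferon-induced chemokine, and IL8, a neutrophil chemokine, fell by 1.01 and 0.85. IL8 had 5.07 RPKM in IL-13+VitD cells and 9.31 RPKM in IL-13 cells.

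Interferon response genes showed calls in 1 direction. Of 38 tested 17 fell and 0 rose, with a median log2 difference of -0.24. The antiviral genes IFIT1, IFIT2 and IFIT3 fell by 0.64, 0.68 and 0.59. IFIT1 had 11.4 RPKM in IL-13+VitD cells against 18.0 RPKM in IL-13 cells, and 16.0 RPKM in VitD cells against 21.6 RPKM in untreated cells. OAS1, an RNA sensor, fell by 0.38. The falls were modest, with none of the 38 genes at 2-fold or more by RPKM ratio.

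NF-kappaB genes also fell more often than they rose. Of 22 tested 10 fell and 2 rose, with a median of -0.22. BIRC3, an inhibitor of apoptosis, had 1.38 RPKM in IL-13+VitD cells against 3.14 RPKM in IL-13 cells, and 1.60 RPKM in VitD cells against 4.13 RPKM in untreated cells. TRAF1 and RELB fell by 0.67 and 0.45. NFKBIA, the inhibitor IkappaB-alpha, rose by 0.57 ± 0.06, with 121 and 82.8 RPKM in IL-13+VitD and IL-13 cells. Of 19 innate receptor and antimicrobial genes 8 rose, led by CD14, IL1RL1 and CAMP, and 2 fell, TLR2 by 0.46 and PGLYRP3 by 0.24.

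Ligands of the EGF and TGF-beta families moved in both directions. HBEGF, an EGF receptor ligand, had 21.9 RPKM in IL-13+VitD cells against 5.64 RPKM in IL-13 cells, and 12.01 RPKM in VitD cells against 8.05 RPKM in untreated cells. AREG, another such ligand, had 5.65 and 2.29 RPKM in IL-13+VitD and IL-13 cells, while EGF and EREG fell by 0.49 and 0.33. Of the 12 genes of the EGF receptor family and its ligands 3 rose and 3 fell. TGFB1, TGFB2 and BMP2 rose by 1.29, 1.25 and 1.43, and the TGF-beta target PMEPA1 by 0.91. TGFB1 had 59.6 RPKM in IL-13+VitD cells against 24.5 RPKM in IL-13 cells, and 74.1 RPKM in VitD cells against 29.6 RPKM in untreated cells. GDF15, a stress-induced member of the family, fell by 1.24. Of the 22 TGF-beta genes tested 7 rose and 6 fell.

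Immediate early factors and MAP kinase feedback genes rose in 13 of 27 cases and fell in 6. The dual-specificity phosphatases DUSP10 and DUSP5, which switch off MAP kinases, rose by 1.36 and 1.03, and ZFP36, which destabilises cytokine messages, by 0.87. DUSP10 had 59.1 RPKM in IL-13+VitD cells and 23.3 RPKM in IL-13 cells. DDIT3, a stress factor of the endoplasmic reticulum, fell by 0.95, with 19.6 and 39.0 RPKM in IL-13+VitD and IL-13 cells.

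Transcription factors of squamous epithelium fell in 13 of 34 cases and rose in 6. SOX2, a factor of esophageal progenitors, had 7.15 RPKM in IL-13+VitD cells against 15.6 RPKM in IL-13 cells, and 2.22 RPKM in VitD cells against 10.5 RPKM in untreated cells. MAF fell by 1.01, FOXN1 and OVOL2 by 0.77 each and BCL6 by 0.69, and ELF3, a factor of differentiating epithelium, rose by 0.63. TP63, the master factor of stratified epithelium, had 58.3 and 72.3 RPKM in IL-13+VitD and IL-13 cells, a fall of 0.29.

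Retinoid and steroid enzymes held large changes of both signs, 9 up and 9 down of 26. Besides DHRS9, SULT1E1 and ADH7, LRAT, which esterifies retinol, fell by 1.05, with 2.01 and 4.44 RPKM in IL-13+VitD and IL-13 cells. HSD17B2, which inactivates estradiol, had 29.0 RPKM in IL-13+VitD cells against 13.0 RPKM in IL-13 cells, and 20.7 RPKM in VitD cells against 7.01 RPKM in untreated cells. AKR1C1, an aldo-keto reductase, rose by 1.80, though it shares sequence with AKR1C2 and AKR1C3 and reads may be split between them. Among ion and acid-base transporters 8 of 20 rose, among them SLC4A7, an importer of bicarbonate, by 1.27, and 5 fell. Among lipid genes 7 of 21 fell, FABP5, a fatty acid binding protein, by 0.70, and 5 rose.

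Basal and matrix adhesion genes rose in 8 of 25 cases and fell in 5, and ITGB6, an integrin that activates TGF-beta, had 40.3 and 20.8 RPKM in IL-13+VitD and IL-13 cells. Of 28 cholesterol synthesis genes 8 fell and 4 rose, all by less than 0.6. Of 22 cell cycle genes 4 fell and 1 rose, beside 8.48% lowered and 10.3% raised over all genes. CDKN2B and CCND1 fell by 0.77 and 0.34, and CDC20 rose by 1.15, at 1.58 RPKM in IL-13+VitD cells and 0.596 RPKM in IL-13 cells.

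Squamous markers were abundant and markers of other cell types mostly near 0. Of 11 squamous epithelial markers 10 reached 1 RPKM, with KRT6A at 15412 RPKM in IL-13+VitD cells and 16863 RPKM in IL-13 cells. Of 9 fibroblast, 8 leukocyte and 7 endothelial markers 1 each did so, COL1A1, CD68 and VWF, and the summed levels were 6.11 and 10.2 RPKM for fibroblast, 57.1 and 48.6 RPKM for leukocyte and 3.92 and 2.14 RPKM for endothelial markers in IL-13+VitD and IL-13 cells. The leukocyte sum is nearly all CD68, at 56.4 and 48.1 RPKM, while CD3E was at 0 in both groups, PTPRC at 0 and 0.00214 RPKM and LYZ at 0 and 0.00699 RPKM. The myeloid genes CSF1R and FCER1G had 0.352 and 0.156 RPKM in IL-13+VitD cells, against 0.352 and 0.123 RPKM in IL-13 cells. Below 1 RPKM, the myeloid integrin gene ITGAM had 0.149 and 0.0296 RPKM, and CLDN5, an endothelial claudin, 0.726 and 0.137 RPKM in IL-13+VitD and IL-13 cells, and both were called higher; CD68 was called higher too, by 0.25, and the part of these markers in the rise of CD14 and in other results was not tested. EPCAM, the squamous list's one gene under 1 RPKM, had 0.456 and 0.514 RPKM. The summed RPKM over all genes was 377254 in IL-13+VitD cells, 383127 in IL-13 cells, 391648 in VitD cells and 388972 in untreated cells.

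The changes on top of IL-13 were set beside those of vitamin D alone, a pair of groups that shares no sample with them. The derived difference and its SE pass through the untreated samples, however, which are also part of the vitamin D comparison. Of the genes tested in both, 1060 of the 1167 raised on top of IL-13 (90.8%) were also raised by vitamin D alone in the authors' deposited table, which is 43.7% of the 2423 that table raises. Likewise 871 of 966 lowered genes (90.2%) were lowered by vitamin D alone, 43.2% of 2015. That table tests its pair directly and calls 21.3% of the genes raised and 17.7% lowered, while the derived difference has larger errors, so the counts of calls cannot be compared as sizes of effect. Opposite calls were made for 5 raised and 5 lowered genes. They are RASGRP1, SLC28A3, CREB3L2, VGLL3 and SH3RF2, raised on top of IL-13, and DHRS3, DLX3, ARSI, ABCC5 and SMAD3, lowered on top of IL-13 (named after their values were seen). In size their log2 differences were 0.19 to 0.59 on top of IL-13 and 0.11 to 0.69 with vitamin D alone. RASGRP1 had the largest of both, but only 0.0457 RPKM in VitD and 0.113 RPKM in untreated cells, and is not called with the RPKM ratio.

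Of the raised genes with a difference of 1 or more, 132 of 137 were also raised by vitamin D alone, and of the lowered ones 58 of 59 were lowered. The 6 exceptions, named after their values were seen, are TNFAIP6, HSD3B1, MEOX1, ATP6V0D2 and RASL11B, raised, and PLSCR4, lowered. All 6 were under 1 RPKM in both VitD and untreated cells, and so were included through the groups given IL-13. By log2 RPKM ratio HSD3B1, MEOX1, ATP6V0D2 and RASL11B stay below 1, at 0.78, 0.72, 0.92 and 0.87; MEOX1 is then not called, and the tables of HSD3B1 disagree by 0.73. RASL11B, a small GTPase, had 8.34 RPKM in IL-13+VitD cells against 4.53 RPKM in IL-13 cells, and 0.715 RPKM in VitD cells against 0.585 RPKM in untreated cells. PLSCR4, a scramblase, had 0.565 RPKM in IL-13+VitD cells against 1.47 RPKM in IL-13 cells, and 0.127 RPKM in VitD cells against 0.154 RPKM in untreated cells.

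Whether the effect of vitamin D differed with IL-13 was tested directly, as the authors' fold change of IL-13+VitD over VitD minus that of IL-13 over untreated, which come from tables with no shared sample. Of 11374 genes, 337 (2.96%) were called: 200 (1.76%) had a higher effect of vitamin D with IL-13 and 137 (1.2%) a lower one (z test with Benjamini-Hochberg adjustment at 0.05). Genes were included by their level in IL-13+VitD or IL-13 cells. Those reaching 1 RPKM only without IL-13 could not enter, so the counts of higher and lower effects cannot be weighed against each other. Leaving aside TNFAIP6, COL13A1 had the largest positive difference of effects, 1.61 ± 0.22 (SE): vitamin D was followed by a rise of 4.49 with IL-13, and of 2.55 without it in the authors' deposited table. These rises differ by 1.94, since the tables disagree by 0.33 for this gene. HBEGF rose by 1.95 with IL-13 and by 0.62 without it, a difference of effects of 1.33 ± 0.09. DPF3, a chromatin reader, had 1.16 RPKM in IL-13+VitD cells against 0.183 RPKM in IL-13 cells, and 0.249 RPKM in VitD cells against 0.122 RPKM in untreated cells, a difference of effects of 1.54. CEACAM6 and SOX2 gave 1.06 and 1.03. For SOX2 both effects were falls, the smaller one with IL-13.

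TGM2, tissue transglutaminase, was lowered by vitamin D only where IL-13 was absent. It had 14.99 RPKM in IL-13+VitD cells and 14.6 RPKM in IL-13 cells, a log2 difference of 0.08 that was not called, against 2.77 RPKM in VitD cells and 6.56 RPKM in untreated cells, a fall of 1.19 in the authors' deposited table. The difference of effects was 1.27 ± 0.09. RASGRP1, PTCHD4 and MEOX1 gave 1.22, 1.28 and 1.30, and none of these 3 exceeded 2 RPKM in any group.

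Leaving aside TNFAIP6, the largest of the 137 lower effects with IL-13 were those of CILP, BMP6, CREG2, IGFL3, PLSCR4 and the keratin pseudogenes KRT16P2 and KRT16P3. CILP, a matrix protein of cartilage, had 6.63 RPKM in IL-13+VitD cells against 2.35 RPKM in IL-13 cells, and 11.97 RPKM in VitD cells against 2.31 RPKM in untreated cells. BMP6, a bone morphogenetic protein, had 1.15 RPKM in IL-13+VitD cells against 0.473 RPKM in IL-13 cells, and 3.71 RPKM in VitD cells against 0.884 RPKM in untreated cells. Both rose with vitamin D in either setting, with differences of effects of -0.88 and -0.89. KRT16P2 and KRT16P3 gave -1.10 and -1.12, but reads of these copies may come from one another or from related keratin genes. TNFAIP6 gave -3.74 by the tables, yet its 4 tables disagree by 6.14 on the log2 scale: the deposited log2 fold change of IL-13+VitD over VitD is 1.32, with 36.5 and 0.0949 RPKM in those groups. From the 3 tables against untreated its difference of effects is 2.40, so no direction is drawn for it. By those tables PLSCR4, IGFL3 and CREG2 are no longer called, and 109 genes have a higher and 78 a lower effect of vitamin D with IL-13.

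**Figure D4:**
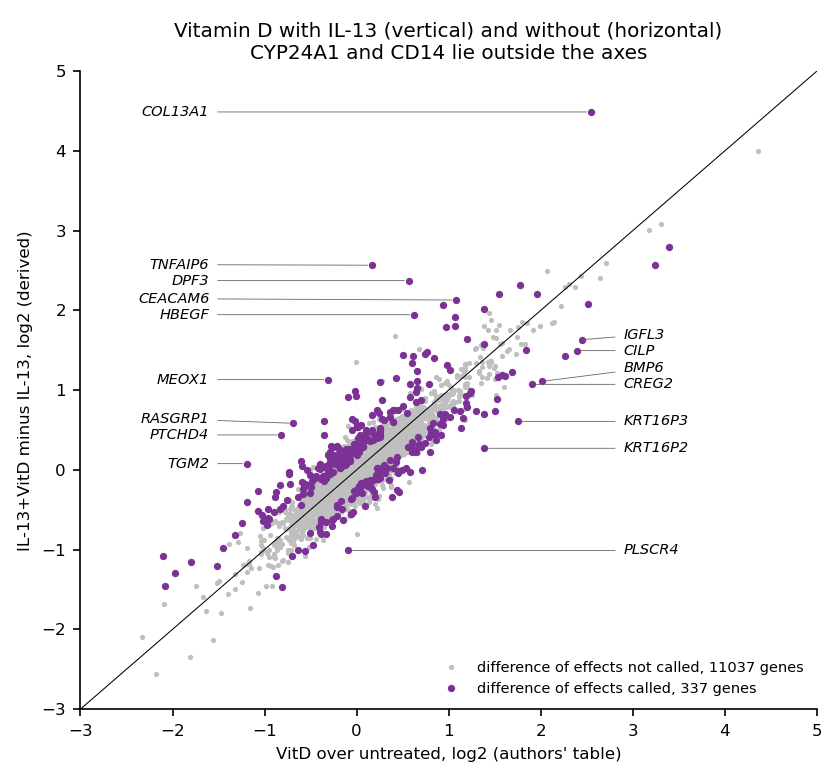
Log2 effect of vitamin D with IL-13 (vertical axis, derived) and without it (horizontal axis, the authors' deposited table) for 11374 genes; purple points are the 337 genes whose difference of effects was called, and the line marks equal effects. Most genes lie along the line, and COL13A1, DPF3 and HBEGF lie above it; TNFAIP6 lies above it although its tested difference, -3.74, is negative, because its tables disagree.

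Histone marks were profiled in 1 library per treatment, so regions called in one library only also depend on depth. H3K27ac, a mark of active enhancers and promoters, gave 72629 regions in IL-13+VitD cells and 69707 in IL-13 cells, of which 22614 and 17211 overlapped no region of the other library, with median -log10 q of 2.60 and 2.80. A region called only in IL-13+VitD cells lay within 10 kb of the start of 53.8% of raised, 44.5% of lowered and 31.6% of genes not called. A region called only in IL-13 cells lay there for 34.7% of raised, 43.6% of lowered and 27.3% of genes not called. For the 138 genes raised by 1 or more the shares were 62.3% and 24.6%, and for the 59 genes lowered as far they were 37.3% for each.

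H3K27ac regions of -log10 q of at least 10 were then taken alone, 18569 in IL-13+VitD cells and 17162 in IL-13 cells. A region here counts as of 1 library only if the other has none above this limit, though a weaker one may be called there. Such regions had median -log10 q of 12.1 and 12.6, close to the limit, and the shares became lower. Of the 138 genes raised by 1 or more, 29 had such a region of IL-13+VitD cells only and 0 one of IL-13 cells only. Of the 59 genes lowered as far, 1 and 10 did. Among genes not called the shares were 8.59% and 5.80%. At the authors' own threshold, H3K9ac, another mark of active promoters, had regions of IL-13+VitD cells only near 56.5% of raised, 483 of 966 lowered and 42.8% of genes not called, and regions of IL-13 cells only near 47.5% of raised, 501 of 966 lowered and 41.7% of genes not called. At that threshold H3K4me3, a mark of promoters, had 2610 regions in IL-13+VitD cells only, near 15.2% of raised, 11.8% of lowered and 6.73% of genes not called. It had 797 in IL-13 cells only, near 3.34% of raised, 7.04% of lowered and 3.10% of genes not called. STAT6 regions of IL-13 cells lay within 50 kb of 25.2% of raised, 20.7% of lowered and 13.2% of genes not called.

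**Figure D5:**
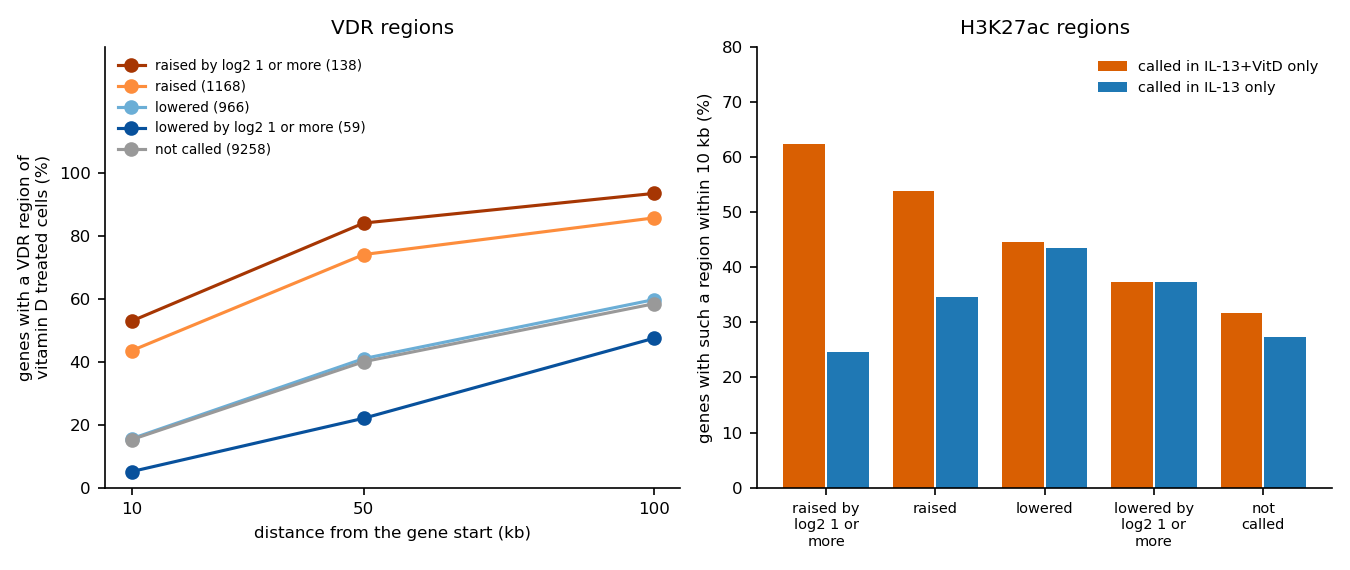
Left, share of genes (vertical axis) with a VDR region of VitD cells within 10, 50 or 100 kb of the start (horizontal axis), by class of change on top of IL-13, with genes per class in brackets. Right, share of genes with an H3K27ac region within 10 kb called in IL-13+VitD cells only (orange) or IL-13 cells only (blue). Raised genes lie above the other classes on the left, 74.1% against 40.0% of genes not called at 50 kb.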

How the data were processed

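The submitters' processing notes name STAR, Bowtie, SAMtools, Trim Galore and MACS2, and as builds hg19 and GRCh37, with neither versions nor roles. The 4 RNA tables hold 1 RPKM value per group, log2 fold changes and p-values with adjusted p-values, all as deposited by the authors; no source used here names their test. An adjusted p of 1 was read as not tested. The ChIP lists hold, per the file headers, a pileup (signal, the fragment height at a summit), a fold enrichment (a ratio to background) and -log10 p and q values deposited by the authors; mitochondrial regions were left out, and summits sharing a start and end were merged.

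The table named for this pair holds vitamin D against both agents: in all 23533 genes, its first column matches vitamin D alone. The difference was therefore derived by joining the tables against untreated on the transcript ID. Each SE is the fold change divided by the normal quantile of its p-value, with a p listed as 0 set to 1e-300, which held in either table for 31 of the 11392 genes. The variance is the sum of both tables', which counts the untreated samples in both and so overstates that part of the error. It does not cover the gap between the derived difference and the RPKM ratio for genes nearly absent from untreated cells. For CCL26 the 95% interval, 0.76 to 1.94, leaves out the log2 RPKM ratio of 0.31. The test was also run on simulated data with unbiased fold changes and variances taken from these tables. That run cannot show how the test does where tables disagree or genes are nearly absent from untreated cells, and its outcome is not given here. Sample-level values were not analysed here, so p-values rest on the authors' own error model, which is not named. What spread they measure is therefore unknown, and it may be technical.

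Members and gene lists (27, 764 of 777 entries matched) were chosen with earlier results of these data known. Genes named are the 20 largest rises and 20 largest falls whose RPKM ratio has the same sign and whose tables disagree by no more than 0.5, up to 6 per list, the lists of vitamin D metabolism, IL-13 receptors and IL-13 response, and the 8 largest differences of effect each way; other list members are named beside counts, and 4 genes of the rule are not reported here. Distances were taken from the gene start in the tables, with overlap of at least 1 base by bedtools 2.31.1. Analyses used Python 3.11 with pandas and scipy. Alternatives to the variance, filter, threshold, pseudocount and distance were tried.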

Additional observations from a re-analysis of the deposited data

Results flagged for a closer look

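The effect of vitamin D differed with and without IL-13, by a test of the difference itself, for 200 genes with a higher effect in the presence of IL-13 and for 137 with a lower one. All were included by their level in IL-13+VitD or IL-13 cells, so these counts cannot be weighed against each other. Without TNFAIP6, the largest positive differences of effects on the log2 scale were 1.61 for COL13A1, 1.54 for DPF3, 1.33 for HBEGF, 1.30 for MEOX1, 1.28 for PTCHD4, 1.27 for TGM2, 1.22 for RASGRP1 and 1.06 for CEACAM6. The largest negative ones were -1.12 for KRT16P3, -1.10 for KRT16P2, -1.08 for PLSCR4, -0.93 for IGFL3, -0.89 for BMP6, -0.88 for CILP and -0.86 for CREG2. From the 3 tables against untreated PLSCR4, IGFL3 and CREG2 are no longer called. Reads of KRT16P3 and KRT16P2 may come from one another or from related keratin genes. TNFAIP6 gave -3.74, or 2.40 from the 3 tables against untreated, and ranks in neither direction: the negative value rests on a deposited fold change that its RPKM values contradict. COL13A1, DPF3, MEOX1, PTCHD4, RASGRP1, PLSCR4, IGFL3, BMP6, CREG2 and TNFAIP6 were under 1 RPKM in at least 1 of the 4 groups. Groups could not be searched for samples that stand apart, because the files give 1 value per group.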

How the results depend on the processing

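No paired analysis was possible because the deposited columns hold 1 value per group, so neither the replicate number nor leaving out a replicate could be tried. Of the 1168 raised and 966 lowered genes, the counts were 1654 and 1519 with the variance taken from all 4 tables, and the other settings gave 902 to 1248 raised and 653 to 1130 lowered genes. Testing the RPKM ratio turned the balance, with 1040 raised and 1130 lowered. At 2-fold by RPKM ratio, 132 and 73 genes became 84 and 28 with a pseudocount of 1, 209 and 142 with no filter and 78 and 32 at 5 RPKM or more. At an adjusted p of 0.01 the genes with a higher and a lower effect of vitamin D with IL-13 were 135 and 86, and from the 3 tables against untreated 109 and 78. The share of raised and of lowered genes with a VDR region was 43.5% and 15.5% at 10 kb, 85.7% and 59.7% at 100 kb, and 52.4% and 16.4% with a -log10 q of at least 10. With an overlap of 50% of the shorter region, H3K27ac regions called in IL-13+VitD cells only lay near 60.1% of raised and 52.5% of lowered genes. Those of IL-13 cells only lay near 45.3% and 53.5%. At a -log10 q of at least 10 in both libraries, where a weaker region did not count, these shares were 15.3%, 9.01%, 3.94% and 10.04%.

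Of 199 named genes, 183 kept their direction and call with the RPKM ratio, 190 with the variance of 4 tables and 184 by the route through vitamin D. With the RPKM ratio the sign turned for 8 genes not called: SH2D1B (-0.83), CA2 (-0.024), JAK2 (-0.0081), MED1 (-0.0017), NCOA2 (-0.0089), PKP2 (-0.018), PTPN11 (-0.018) and STAT5B (-0.012). By the route through vitamin D, STAT3 came to 0.00051 and TNFAIP6 to -3.58, its tables being in conflict, and its difference of effects turned to 2.40 from the 3 tables against untreated. CCL26, CISH, JAK1, KRT16P2, MEOX1, RASGRP1 and TGFA lost their call with the RPKM ratio, and VDR gained one. By the route through vitamin D 11 lost it: CDK6, CISH, CLDN17, CYP2R1, EGF, EREG, KRT75, PTPN2, RASGRP1, SPRR2F and STAT5A. With the variance of 4 tables a call was gained by 7 genes: IRS2, NCOA3, PTCHD4, SOCS1, SOCS3, STAT6 and VDR. For the counts, testing the RPKM ratio, leaving out genes where it and the derived difference disagree, leaving out genes whose tables disagree, and the 3 tables against untreated were chosen after seeing the data, as was the hexamer search. Without read depth, how far low genes limit these values is unknown.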
